A study of Mus musculus with 8 samples.

Results

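The genes described here build, cut, cap and crosslink actin filaments. They are 54 genes picked by symbol from the 21878 rows of an expression table of mouse dorsal root ganglia: both cytoplasmic actins, 8 subunits of the Arp2/3 complex, 6 nucleation promoting factors, 4 formins, 3 Ena/VASP proteins, 4 actin monomer binding proteins, 6 genes of the cofilin pathway, 3 coronins, 2 capping and severing proteins, 5 crosslinkers, 4 adhesion linkers, 3 proteins of the ezrin, radixin and moesin family (ERM) and 4 tropomyosins. All 54 symbols were found in the table. The choice was made by gene function, but with earlier results of these data known.

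Ganglia of lumbar levels 4 and 5, which hold the cell bodies of sensory neurons whose axons run in the sciatic nerve, were taken from C57BL/6 mice 3 days after surgery and profiled by paired-end RNA sequencing. The dKO SNI mice carried floxed Myh9 and Myh10, which encode heavy chains of non-muscle myosin II, together with Advillin-Cre, and their sciatic nerve was cut (called SNI in the sample names). The dKO sham mice had the same alleles and sham surgery. The WT SNI and WT sham mice carried the same floxed alleles without Cre and had the axotomy or the sham surgery, so all mice of the study were floxed. Advillin is a gene of sensory neurons, so the deletion is directed at neurons and not at the glia, fibroblasts and blood cells of the ganglion. Each of the 4 groups had 2 libraries, 8 in all. Whether the 2 are different animals is not stated, and the p-values below cover the spread between libraries, which may be technical.

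An actin filament grows at its barbed end from monomers that profilin delivers. New filaments start on formins, which make straight ones, or as branches on the Arp2/3 complex once a factor of the WASP or WAVE family has switched it on. Cofilin and gelsolin cut filaments, LIM kinases switch cofilin off, capping proteins close the barbed end, and filamin, alpha-actinin and fascin join filaments into networks or bundles. In a sensory neuron this machinery shapes the growth cone, and non-muscle myosin II pulls on its filaments. In macrophages and neutrophils it drives crawling and phagocytosis.

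Values are FPKM, levels scaled to transcript length and to the size of the library. A change is the difference of group means on the log2(FPKM + 1) scale, where low genes appear to change less than they did. The ± after it is the standard error from limma, fitted over the 12884 genes that reached 1 FPKM in 2 or more libraries. A gene was called where its p, adjusted by the Benjamini-Hochberg method over all these genes, was under 0.05. All 54 genes passed the filter, and 51 had at least 1 FPKM in all 8 libraries. Cap2, Flnc and Was did not, and Flnc and Was were near or below 1 FPKM in every sham library, so it was mainly the SNI libraries that carried them through.

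FPKM totals were 278310 to 339920 per library, 11696 to 12478 genes reached 1 FPKM, and across genes the replicates of a group had a Pearson r between 0.984 and 0.989. Read depth is unknown. Myh9 measured 10.9 and 12.1 FPKM in dKO sham libraries against 27.2 and 31.6 FPKM in WT sham libraries, and Myh10 measured 12.2 and 14.4 FPKM in dKO sham libraries against 18.1 and 23.5 FPKM in WT sham libraries. After axotomy Myh9 stood at 24.6 and 24.4 FPKM in dKO libraries and 30.8 and 29.7 FPKM in WT libraries, and Myh10 at 5.31 and 4.12 FPKM in dKO libraries and 13.8 and 10.4 FPKM in WT libraries. Of the 15 pan-neuronal markers none was at 0 in all libraries. The 4 Y-linked genes Ddx3y, Eif2s3y, Kdm5d and Uty measured 2.10 to 17.8 FPKM in the dKO SNI and WT sham libraries and 0 to 0.0109 FPKM in the WT SNI and dKO sham libraries. The sex of the mice therefore changes with the groups in each comparison below and cannot be told apart from surgery or genotype; it runs in opposite directions in the injury comparisons of dKO and of WT mice. WT sham library 2 also stood apart: it held the muscle genes Acta1 and Ckm at 149 and 138 FPKM, against at most 3.01 and 3.17 FPKM elsewhere.

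The 54 genes made up 1.22 to 1.52% of the summed FPKM of a library. By mean over the 8 libraries the highest was Cfl1, cofilin 1, at 694 FPKM, followed by Actg1 (447 FPKM) and Actb (444 FPKM), the cytoplasmic gamma and beta actins. Next came profilins Pfn2 (241 FPKM) and Pfn1 (227 FPKM) and destrin, Dstn (188 FPKM). The lowest were Was (2.49 FPKM), Flnc (2.06 FPKM), Diaph2 (1.76 FPKM) and Cap2 (1.31 FPKM). The ranges of Actg1 (293 to 563 FPKM) and Actb (328 to 558 FPKM) over libraries overlap almost wholly. Their order changed with the group. The ratio of Actb to Actg1 was 0.769 to 0.935 in sham libraries, 0.825 and 1.02 in WT SNI libraries and 1.53 and 1.74 in dKO SNI libraries.

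After axotomy, 24 of the 54 genes were called in dKO ganglia (44.4%, 15 higher and 9 lower than in dKO sham) and 14 in WT ganglia (25.9%, 8 higher and 6 lower than in WT sham). Over all tested genes 48.4% were called in the dKO injury comparison (23.8% higher, 24.6% lower) and 23% in the WT one (13.6% higher, 9.38% lower). The shares of actin genes called were thus near those of all genes, and the counts say nothing particular about actin genes. Scaling bears on the WT background: over all genes 1758 rose and 1209 fell, but 1308 rose and 1541 fell under quantile normalization, while the split of the actin genes was 8 and 6 under both. The median change of the 54 genes was 0.15 in dKO and 0.15 in WT ganglia, against -0.00 and 0.07 for all tested genes. Under quantile normalization this median was 0.099 in dKO and 0.011 in WT ganglia, against -0.029 and -0.018 for all tested genes. Without dKO sham library 1 or without dKO SNI library 2 the dKO count dropped to 14 or 13, and without WT sham library 2 the WT count dropped to 8.

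The genes called after injury included both rises and falls. Higher in both injury comparisons were 7 of the 54 genes, against 11.1% of all tested genes: Was, Cttn and Arpc2, which act in branched nucleation, Flna and Flnc, which crosslink filaments, Zyx, which sits at adhesions, and the tropomyosin Tpm4. Lower in both were 5, against 8.79% of all tested genes: Wasl, Wasf3, Fmnl1, Limk1 and Tln2. In dKO ganglia but not in WT ganglia 8 more were called higher (Actb, Arpc4, Arpc5, Pfn1, Coro1a, Capg, Gsn and Tpm3) and 4 more lower (Wasf1, Evl, Pfn2 and Tpm1), against 12.7% and 15.7% of all tested genes. Fscn1 (higher) and Actn1 (lower) were called in WT ganglia but not in dKO ganglia, against 2.51% and 0.551%. The other 28 genes were called in neither, against 48.5% of all tested genes. Of the 54 genes 46 had the same sign of change in both comparisons, and so had 82.2% of all tested genes. The shared rises, the shared falls and the common sign were thus about as frequent as over all genes. SNI and sham libraries did not overlap for 40 of the 54 genes in dKO ganglia (26 higher and 14 lower, against 37.7% and 37.8% of all genes) and for 41 in WT ganglia (27 higher and 14 lower, against 39.8% and 29.2%).

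**Figure D1:**
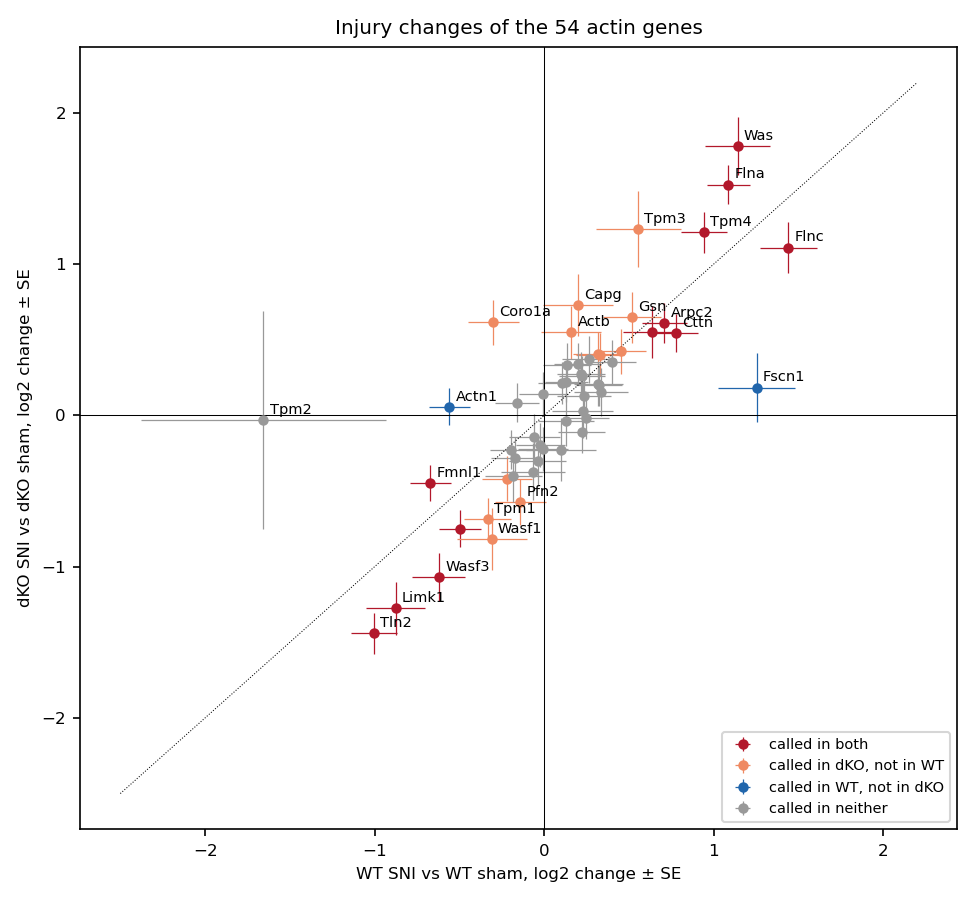
Each point is 1 of the 54 genes: the change in log2(FPKM + 1) of SNI over sham in dKO ganglia (vertical axis) against that in WT ganglia (horizontal axis), with standard errors as lines and the dotted line marking equal changes. Colours give the calls; 7 genes lie at the upper right as higher in both and 5 at the lower left as lower in both, while Fscn1 and Actn1 lie off the diagonal.

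A call in one genotype and not in the other does not show that the responses differ, so the difference of the injury responses was tested itself. It was called for 0 of the 54 genes (limma; lowest adjusted p = 0.209), with 6 at an unadjusted p under 0.05, and over all genes 7 of 12884 (0.0543%) were called, 0.0466% higher and 0.00776% lower, while 1863 had an unadjusted p under 0.05. The gene with the lowest adjusted p was Coro1a, with a difference of 0.92 ± 0.21. Without WT sham library 1, 1 gene was called, the muscle-linked Tpm2 (3.14, adjusted p = 0.00288).

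**Figure D2:**
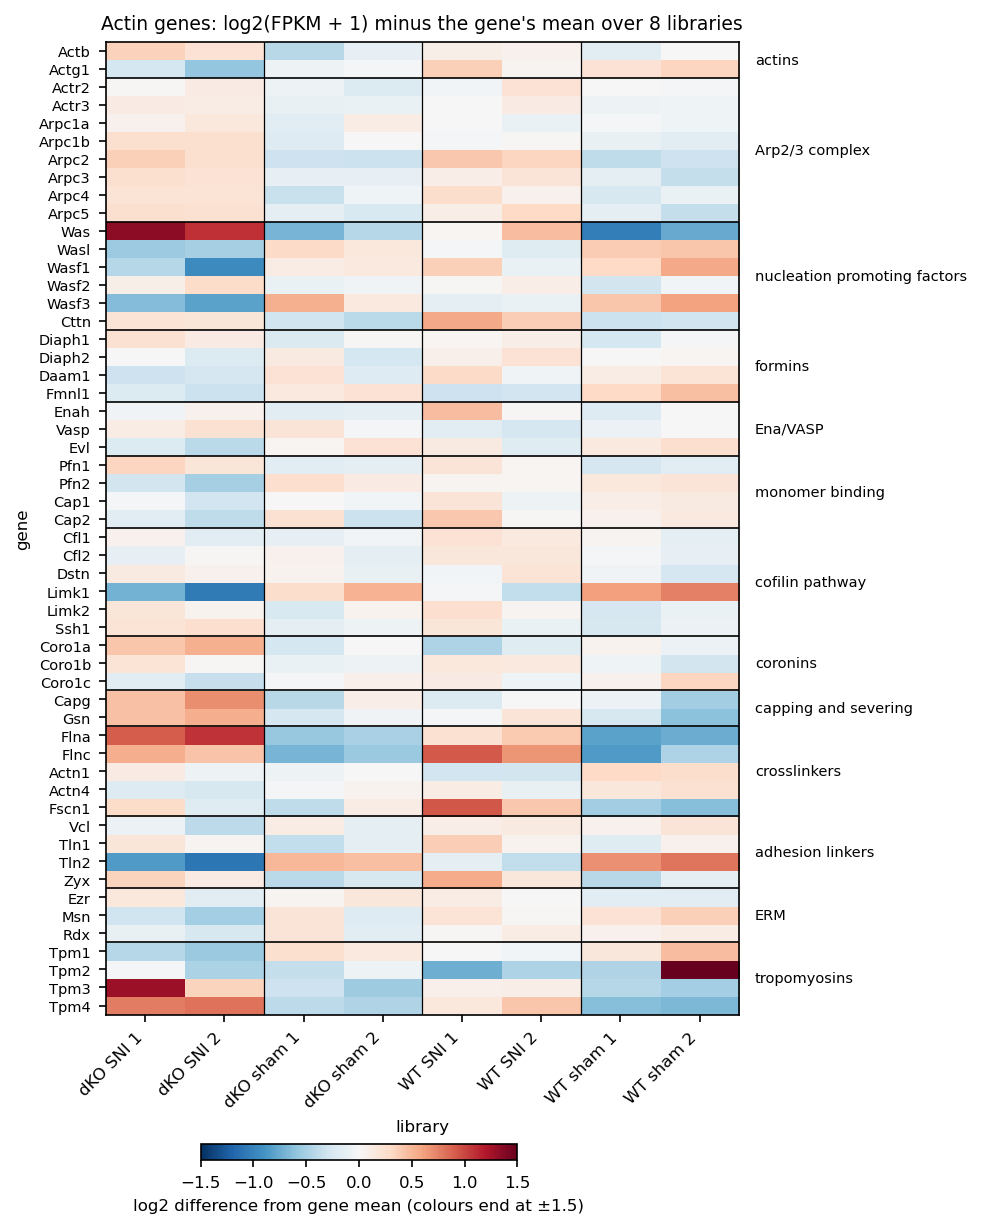
Rows are the 54 genes in their functional groups and columns the 8 libraries; colour is log2(FPKM + 1) minus the gene's mean over the 8 libraries, red above and blue below. Was, Flna and Tpm4 are reddest in the dKO SNI libraries and Tln2, Limk1 and Wasf3 bluest there, and Tpm2 departs in WT sham library 2.

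In sham ganglia the genotype moved none of these genes past the threshold: 0 of 54 were called in dKO sham against WT sham (limma; lowest adjusted p = 0.404, 1 gene at an unadjusted p under 0.05), where 20 of 12884 genes (0.155%) were called in all, 0.0931% higher and 0.0621% lower. The median change of the 54 was -0.04, against 0.04 for all tested genes. The groups did not overlap for 19 of the 54, with dKO sham higher for 7 and lower for 12, against 27.8% of all genes higher and 18.3% lower. Without WT sham library 1, 1 of the 54 was called, again Tpm2 (-2.80, adjusted p = 0.00106).

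The promoter windows that RefSeq gives for these genes (build GRCm38.p6, from 250 bases before to 50 after the start) were searched on both strands for a pair of motifs. The CArG box is the site of serum response factor, whose best known targets include actin genes, and TGANTCA is the core site of AP-1, a factor family made in injured sensory neurons. A window was at hand for 49 of the 54 genes, not for Actb, Cttn, Diaph1, Coro1b or Tln2. A CArG box occurred in the windows of 3 of these 49 (Actg1, Vcl and Arpc4) and of 488 of all 27025 genes with a window (1.81%). TGANTCA occurred in 5 of the 49 (Actn4, Diaph2, Ezr, Limk2 and Zyx) and in 2425 of all (8.97%). Stretches of 100 bases are printed 5′ to 3′ on the gene's strand, with the motif in capitals, for the genes with a CArG box, for Zyx, the sole gene higher in both injury comparisons whose window held a motif, and for Tpm4 and Flna, higher in both and without either motif. They come from chr11:120348531-120348630 (Actg1, minus strand), chr14:20929148-20929247 (Vcl, plus), chr6:113377863-113377962 (Arpc4, plus), chr6:42349660-42349759 (Zyx, plus), chr8:72135188-72135287 (Tpm4, plus) and chrX:74246535-74246634 (Flna, minus).
Actg1: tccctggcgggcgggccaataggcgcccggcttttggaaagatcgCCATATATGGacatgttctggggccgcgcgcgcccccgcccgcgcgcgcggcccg
Vcl: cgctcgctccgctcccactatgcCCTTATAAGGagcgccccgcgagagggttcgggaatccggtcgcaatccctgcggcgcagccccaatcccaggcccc
Arpc4: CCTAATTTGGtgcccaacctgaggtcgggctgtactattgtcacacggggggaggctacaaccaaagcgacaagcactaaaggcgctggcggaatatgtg
Zyx: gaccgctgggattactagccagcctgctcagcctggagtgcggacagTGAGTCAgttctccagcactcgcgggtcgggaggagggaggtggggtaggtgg
Tpm4: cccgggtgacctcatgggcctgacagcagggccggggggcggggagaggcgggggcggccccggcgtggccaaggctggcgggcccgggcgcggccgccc
Flna: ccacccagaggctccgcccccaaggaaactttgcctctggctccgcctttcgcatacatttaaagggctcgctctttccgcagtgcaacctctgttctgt
Counted from the start, the CArG box of Actg1 lies at -90 to -81, that of Vcl at -227 to -218 and that of Arpc4 at -250 to -241, and the TGANTCA of Zyx at -121 to -115. Of the 7 genes higher in both comparisons 6 had a window and 1 held a motif; of the 5 lower in both, 4 had a window and 0 held one. A match in such a window is a description of letters and no evidence of binding, and a window without a match leaves out any site elsewhere.

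The cytoplasmic actins differ by a few residues at their start. Their changes in dKO ganglia had opposite signs, and only that of Actb was called. Actb measured 558 and 509 FPKM in dKO SNI libraries against 328 and 403 FPKM in dKO sham libraries, and 465 and 459 FPKM in WT SNI libraries against 391 and 438 FPKM in WT sham libraries. Both SNI libraries lay above both sham libraries in each genotype, and Actb rose in dKO ganglia (0.55 ± 0.17, adjusted p = 0.0271) while the WT change of 0.16 ± 0.17 was not called (adjusted p = 0.535). Actg1 measured 364 and 293 FPKM in dKO SNI libraries against 416 and 431 FPKM in dKO sham libraries, with 563 and 452 FPKM in WT SNI libraries and 508 and 549 FPKM in WT sham libraries. The dKO SNI libraries were below all others for Actg1, and the WT groups overlapped. Its injury change was -0.37 ± 0.19 in dKO ganglia (adjusted p = 0.127) and -0.07 ± 0.19 in WT ganglia (adjusted p = 0.821). How far each of these abundant members changed depends on scaling. Under quantile normalization the Actb change was 0.09 in dKO ganglia (adjusted p = 0.67) and -0.06 in WT ganglia. Actg1 then fell in dKO ganglia (-0.79, adjusted p = 0.0155). With either scaling the dKO change of Actb lay above that of Actg1. The Actb call was also lost without dKO sham library 1 (0.40), dKO SNI library 1 (0.48) or dKO SNI library 2 (0.62). It was lost as well with no filter on low values (adjusted p = 0.0549) and with only the dKO groups in the fit (adjusted p = 0.0745).

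Of the 8 subunits of the Arp2/3 complex, which nucleates a branch on an existing filament, 3 rose in dKO ganglia and 1 in WT ganglia, and none fell, where 23.8% and 13.6% of all tested genes were called higher. Arpc2, a core subunit that holds the complex to the mother filament, measured 145 and 133 FPKM in dKO SNI libraries against 90.6 and 90.3 FPKM in dKO sham libraries, and 149.7 and 142 FPKM in WT SNI libraries against 86.4 and 91.0 FPKM in WT sham libraries. It rose in both, by 0.61 ± 0.13 in dKO (adjusted p = 0.00481) and 0.71 ± 0.13 in WT ganglia (adjusted p = 0.00586), with no overlap of SNI and sham libraries. Arpc1b, the most abundant subunit, measured 209 and 209 FPKM in dKO SNI libraries against 155 and 176 FPKM in dKO sham libraries, and 174 and 179.5 FPKM in WT SNI libraries against 164 and 158 FPKM in WT sham libraries. All SNI libraries were above the sham libraries of their genotype, but the changes were not called (0.34, adjusted p = 0.0767 in dKO; 0.14, adjusted p = 0.515 in WT). Arpc4 (0.40 ± 0.14, adjusted p = 0.042) and Arpc5 (0.42 ± 0.15, adjusted p = 0.0403) were called in dKO ganglia, and their WT changes of 0.33 and 0.45 were not. All 8 changes were positive in dKO ganglia and 7 of 8 in WT ganglia, with medians of 0.34 and 0.23, where 6438 of 12884 tested genes were positive in dKO and 7295 in WT ganglia; Arpc1a, at -0.00 in WT, was the exception, joined by Arpc1b at -0.05 under quantile normalization. The Arpc2 call in WT was lost without WT sham library 1 (0.67, adjusted p = 0.0549). The Arpc4 and Arpc5 calls were lost without either WT sham library, either dKO SNI library or dKO sham library 1. That of Arpc5 was also lost without dKO sham library 2. The changes in these fits were 0.27 to 0.46. With only the dKO groups in the fit both calls were lost (adjusted p = 0.0904 for Arpc4 and 0.0916 for Arpc5). Under quantile normalization that of Arpc5 was lost (0.28, adjusted p = 0.123).

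The factors that switch the complex on moved in opposite directions. Was, the WASP gene of blood cells, measured 6.46 and 5.27 FPKM in dKO SNI libraries against 0.810 and 1.19 FPKM in dKO sham libraries, and 1.99 and 3.06 FPKM in WT SNI libraries against 0.431 and 0.745 FPKM in WT sham libraries. It rose in both genotypes, by 1.78 ± 0.19 in dKO (adjusted p = 0.000173) and 1.14 ± 0.19 in WT ganglia (adjusted p = 0.00372). Cttn, cortactin, which steadies branches, measured 53.3 and 52.6 FPKM in dKO SNI libraries against 37.4 and 34.7 FPKM in dKO sham libraries, and 68.8 and 60.0 FPKM in WT SNI libraries against 36.7 and 37.4 FPKM in WT sham libraries. It too rose in both (0.54 ± 0.13, adjusted p = 0.0071 in dKO; 0.78 ± 0.13, adjusted p = 0.00337 in WT). Both genes were free of overlap between SNI and sham libraries, but Was was highest in dKO SNI and Cttn in WT SNI libraries.

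Wasl, which encodes N-WASP, the widely expressed relative of WASP, fell: it measured 11.8 and 12.2 FPKM in dKO SNI libraries against 21.8 and 19.8 FPKM in dKO sham libraries, and 17.4 and 15.5 FPKM in WT SNI libraries against 23.3 and 23.8 FPKM in WT sham libraries (-0.75 ± 0.12, adjusted p = 0.00117 in dKO; -0.50 ± 0.12, adjusted p = 0.0193 in WT). Wasf3, which encodes WAVE3, measured 3.02 and 2.61 FPKM in dKO SNI libraries against 8.15 and 5.97 FPKM in dKO sham libraries, and 4.77 and 4.91 FPKM in WT SNI libraries against 7.40 and 8.61 FPKM in WT sham libraries. It fell in dKO (-1.07 ± 0.16, adjusted p = 0.000693) and WT ganglia (-0.62 ± 0.16, adjusted p = 0.0211). Wasf1, which encodes WAVE1, a form abundant in brain, measured 5.91 and 3.82 FPKM in dKO SNI libraries against 9.02 and 9.32 FPKM in dKO sham libraries, and 10.9 and 7.65 FPKM in WT SNI libraries against 10.4 and 12.8 FPKM in WT sham libraries. It fell in dKO ganglia (-0.82 ± 0.21, adjusted p = 0.00982), and its WT libraries overlapped. Wasf2, which encodes WAVE2, changed by 0.26 in dKO and 0.22 in WT ganglia without a call. In WT ganglia the Wasl and Wasf3 calls were lost without either WT sham library or WT SNI library 2, and that of Wasf3 also without WT SNI library 1, at changes of -0.72 to -0.42 and adjusted p of 0.0542 to 0.153. The dKO call of Wasf1 was lost without dKO SNI library 2 (-0.56, adjusted p = 0.0824).

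Like Was, the summed macrophage and neutrophil markers were higher in SNI than in sham libraries and highest in dKO SNI libraries. The 22 macrophage markers summed to 2146 and 2176 FPKM in dKO SNI libraries against 261 and 410.2 FPKM in dKO sham libraries, and to 922 and 1162 FPKM in WT SNI libraries against 220 and 224 FPKM in WT sham libraries. The 15 neutrophil markers summed to 7802 and 7610.3 FPKM in dKO SNI libraries against 778 and 1298 FPKM in dKO sham libraries, and to 1435 and 2768 FPKM in WT SNI libraries against 796 and 1062 FPKM in WT sham libraries. Of the macrophage markers 22 of 22 rose in dKO and 21 of 22 in WT ganglia, of the neutrophil markers 15 of 15 and 8 of 15, and no marker of either list was at 0 in all libraries. The 15 pan-neuronal markers summed to 5526 and 4045 FPKM in dKO SNI libraries against 7405 and 8270 FPKM in dKO sham libraries, and to 9091 and 7151 FPKM in WT SNI libraries against 8175 and 9004 FPKM in WT sham libraries; 11 of them fell and 1 rose in dKO ganglia, and 6 fell and 1 rose in WT ganglia. Over all tested genes 23.8% were called higher and 24.6% lower in dKO ganglia, and 13.6% and 9.38% in WT ganglia. In whole ganglia, fewer cells of a type and less RNA per cell cannot be told apart. The part of these cell types in the changes of the actin genes, here and below, was not tested.

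**Figure D3:**
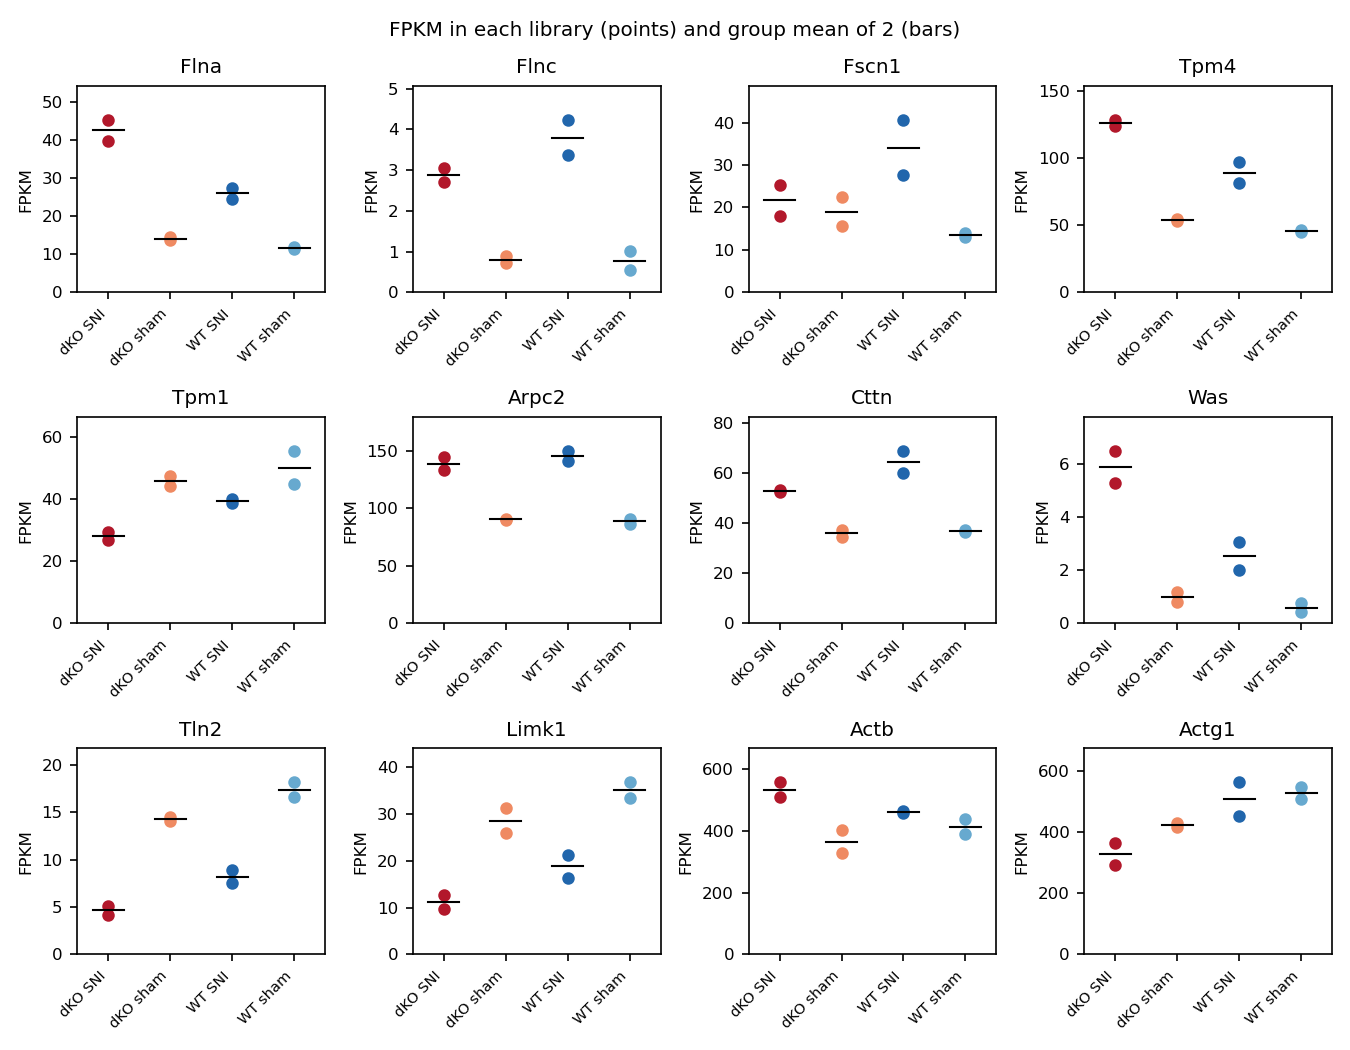
FPKM of 12 of the genes in each library (points) with the mean of the group's 2 libraries (bars), from dKO SNI at the left to WT sham at the right of each panel, all axes from 0. Flna, Was and Tpm4 are highest and Tln2, Limk1 and Tpm1 lowest in dKO SNI, while Cttn, Flnc and Fscn1 peak in WT SNI.

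Among the formins, 1 of 4 was called and it fell in both genotypes, where 8.79% of all tested genes were lower in both. Fmnl1, a formin first known from leukocytes and the most abundant of the 4 here, measured 10.3 and 9.43 FPKM in dKO SNI libraries against 13.4 and 14.2 FPKM in dKO sham libraries, and 9.51 and 9.70 FPKM in WT SNI libraries against 15.0 and 16.8 FPKM in WT sham libraries (-0.45 ± 0.12, adjusted p = 0.0138 in dKO; -0.67 ± 0.12, adjusted p = 0.00514 in WT). Diaph1, Diaph2 and Daam1, which elongate filaments at the barbed end, changed by 0.28, -0.04 and -0.30 in dKO ganglia and by 0.22, 0.13 and -0.04 in WT ganglia, none called. The Fmnl1 calls were lost without WT sham library 2 in WT (-0.59, adjusted p = 0.0619) and without dKO sham library 2 (-0.41, adjusted p = 0.0557) or dKO SNI library 2 (-0.39, adjusted p = 0.0798) in dKO ganglia. Daam1 was called lower in dKO ganglia without dKO sham library 2 (-0.51, adjusted p = 0.0497).

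Of the Ena/VASP proteins, which keep barbed ends growing, Evl was called in dKO ganglia. It measured 17.3 and 14.9 FPKM in dKO SNI libraries against 20.3 and 23.3 FPKM in dKO sham libraries, and 22.1 and 17.6 FPKM in WT SNI libraries against 22.3 and 23.9 FPKM in WT sham libraries. Its change was -0.42 ± 0.15 in dKO (adjusted p = 0.0423) and -0.22 in WT ganglia (adjusted p = 0.31). Enah, which encodes Mena, measured 10.4 and 11.3 FPKM in dKO SNI libraries against 9.47 and 9.73 FPKM in dKO sham libraries, and 15.3 and 11.0 FPKM in WT SNI libraries against 9.35 and 10.8 FPKM in WT sham libraries. Vasp, the highest of the 3, measured 29.3 and 31.6 FPKM in dKO SNI libraries against 31.1 and 26.5 FPKM in dKO sham libraries, and 23.9 and 22.6 FPKM in WT SNI libraries against 25.3 and 26.8 FPKM in WT sham libraries. Neither was called, and the dKO groups of Vasp overlapped. The Evl call was lost without either WT sham library, either dKO sham library or dKO SNI library 2, at -0.51 to -0.32. It was also lost with no filter on low values (adjusted p = 0.058) and under quantile normalization (-0.32, adjusted p = 0.0841). With only the dKO groups in the fit it was lost too (adjusted p = 0.0688).

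The profilins load monomers with ATP and bring them to growing ends. Pfn1 exceeded Pfn2 in both dKO SNI libraries and in WT SNI library 1, but not in WT SNI library 2 or any sham library. Pfn2, the form prominent in brain, measured 196 and 168 FPKM in dKO SNI libraries against 282 and 259 FPKM in dKO sham libraries, and 244 and 242 FPKM in WT SNI libraries against 264 and 271 FPKM in WT sham libraries. Pfn1, the form of most cells, measured 281 and 255 FPKM in dKO SNI libraries against 202 and 202 FPKM in dKO sham libraries, and 257 and 229 FPKM in WT SNI libraries against 188 and 200.2 FPKM in WT sham libraries. SNI and sham libraries did not overlap for either gene in either genotype. In dKO ganglia Pfn2 fell (-0.57 ± 0.15, adjusted p = 0.0127) and Pfn1 rose (0.41 ± 0.15, adjusted p = 0.0473), and in WT ganglia neither was called (-0.14, adjusted p = 0.53 for Pfn2; 0.32, adjusted p = 0.148 for Pfn1). The Pfn1 call was lost on leaving out any 1 of the 8 libraries (0.34 to 0.47, adjusted p of 0.0612 to 0.145) and under quantile normalization (0.10, adjusted p = 0.62). That of Pfn2 was lost without dKO sham library 1 (-0.51, adjusted p = 0.0711) or dKO SNI library 2 (-0.46, adjusted p = 0.0741). The cyclase-associated proteins Cap1 and Cap2, which recycle monomers, changed by -0.14 and -0.23 in dKO and -0.06 and 0.10 in WT ganglia, none called.

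In the cofilin pathway the filament-cutting proteins were not called. Limk1, a kinase that switches them off, fell, and its relative Limk2 was not called. Cfl1 measured 722 and 619 FPKM in dKO SNI libraries against 638 and 671 FPKM in dKO sham libraries, and 801 and 765 FPKM in WT SNI libraries against 709.7 and 630.3 FPKM in WT sham libraries. The dKO groups overlapped, and the changes were 0.03 (adjusted p = 0.898) in dKO and 0.23 (adjusted p = 0.382) in WT ganglia. Under quantile normalization Cfl1 was called lower in dKO ganglia (-0.53, adjusted p = 0.0283), a reversal of sign. Cfl2, the cofilin of muscle, and Dstn, which also frees monomers, changed by -0.02 and 0.13 in dKO and 0.25 and 0.24 in WT ganglia, none called.

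Limk1, a LIM kinase abundant in neurons, measured 12.8 and 9.75 FPKM in dKO SNI libraries against 25.9 and 31.3 FPKM in dKO sham libraries, and 21.2 and 16.4 FPKM in WT SNI libraries against 33.4 and 36.8 FPKM in WT sham libraries. Every SNI library lay below every sham library, and the gene fell by 1.28 ± 0.17 on the log2 scale in dKO (adjusted p = 0.000483) and by 0.88 ± 0.17 in WT ganglia (adjusted p = 0.00775). Its relative Limk2 and the cofilin phosphatase Ssh1 changed by 0.20 and 0.34 in dKO and 0.32 and 0.20 in WT ganglia, none called. The WT call of Limk1 was lost without WT sham library 2 (-0.81, adjusted p = 0.0625) or WT SNI library 2 (-0.70, adjusted p = 0.0662).

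Coro1a, a coronin best known from leukocytes, measured 51.5 and 56.1 FPKM in dKO SNI libraries against 31.7 and 38.1 FPKM in dKO sham libraries, but 27.7 and 33.7 FPKM in WT SNI libraries against 39.7 and 36.1 FPKM in WT sham libraries. The SNI libraries were the higher ones in dKO and the lower ones in WT ganglia. It rose in dKO ganglia (0.61 ± 0.15, adjusted p = 0.00865), and the WT change of -0.30 ± 0.15 was not called (adjusted p = 0.173). Coro1b, the highest of the 3, measured 59.7 and 52.4 FPKM in dKO SNI libraries against 48.1 and 49.1 FPKM in dKO sham libraries, and 57.9 and 57.4 FPKM in WT SNI libraries against 49.4 and 42.6 FPKM in WT sham libraries, with neither change called (0.20 in dKO, 0.32 in WT). Coro1c changed by -0.28 and -0.17. The dKO call of Coro1a was lost without dKO sham library 1 (0.49, adjusted p = 0.061) or dKO SNI library 2 (0.55, adjusted p = 0.053).

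The calcium-dependent capping protein Capg, abundant in macrophages, measured 17.4 and 21.1 FPKM in dKO SNI libraries against 9.18 and 13.5 FPKM in dKO sham libraries, and 10.8 and 12.5 FPKM in WT SNI libraries against 11.8 and 8.46 FPKM in WT sham libraries. Gelsolin, Gsn, which cuts and caps, measured 145 and 156 FPKM in dKO SNI libraries against 89.5 and 102 FPKM in dKO sham libraries, and 105 and 122 FPKM in WT SNI libraries against 90.1 and 68.9 FPKM in WT sham libraries. Both rose in dKO ganglia (Capg 0.73 ± 0.20, adjusted p = 0.0161; Gsn 0.65 ± 0.17, adjusted p = 0.0118). In WT ganglia Capg overlapped between groups (0.20, adjusted p = 0.505), and Gsn did not overlap but missed the threshold (0.52 ± 0.17, adjusted p = 0.0549). Both dKO calls were lost without dKO sham library 1 or dKO SNI library 2, at 0.47 to 0.60 and adjusted p of 0.0618 to 0.119.

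Of the 5 crosslinkers 2 rose and none fell in dKO ganglia, and 3 rose and 1 fell in WT ganglia. Over all tested genes 23.8% were called higher and 24.6% lower in dKO ganglia, and 13.6% and 9.38% in WT ganglia. Flna, filamin A, which ties filaments into a gel and links them to receptors at the membrane, measured 39.8 and 45.1 FPKM in dKO SNI libraries against 13.7 and 14.5 FPKM in dKO sham libraries, and 24.5 and 27.5 FPKM in WT SNI libraries against 11.5 and 12.0 FPKM in WT sham libraries. It rose by 1.53 ± 0.13 in dKO (adjusted p = 6.41e-05) and by 1.08 ± 0.13 in WT ganglia (adjusted p = 0.000683). Flnc, the filamin best known from muscle, measured 3.05 and 2.71 FPKM in dKO SNI libraries against 0.711 and 0.887 FPKM in dKO sham libraries, and 4.22 and 3.37 FPKM in WT SNI libraries against 0.540 and 1.01 FPKM in WT sham libraries. It rose by 1.11 ± 0.17 in dKO (adjusted p = 0.000829) and 1.44 ± 0.17 in WT ganglia (adjusted p = 0.000687). For both filamins every SNI library exceeded every sham library. In each genotype the Flna call held in all 18 alternative settings and the Flnc call in the 17 in which Flnc was tested. The 13 skeletal muscle markers summed to 765 FPKM in WT sham library 2 and to 49.4 to 94.3 FPKM elsewhere, and the 13 smooth muscle and pericyte markers summed to 102 to 122 FPKM over all 8 libraries. The 12 fibroblast markers summed to 1110 and 1411 FPKM in dKO SNI libraries against 455 and 582 FPKM in dKO sham libraries, and to 585 and 891 FPKM in WT SNI libraries against 314 and 219 FPKM in WT sham libraries.

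Fascin, Fscn1, which packs filaments into the straight bundles of filopodia, measured 25.3 and 18.1 FPKM in dKO SNI libraries against 15.6 and 22.5 FPKM in dKO sham libraries, and 40.5 and 27.7 FPKM in WT SNI libraries against 14.1 and 13.0 FPKM in WT sham libraries. The WT groups stood well apart and the dKO groups overlapped. It rose in WT ganglia (1.25 ± 0.23, adjusted p = 0.0054), and the dKO change of 0.18 ± 0.23 was not called (adjusted p = 0.534); the difference of these responses was -1.07 ± 0.32 (adjusted p = 0.264). Actn1, alpha-actinin 1, measured 7.81 and 6.71 FPKM in dKO SNI libraries against 6.71 and 7.15 FPKM in dKO sham libraries, and 5.66 and 5.72 FPKM in WT SNI libraries against 8.96 and 8.75 FPKM in WT sham libraries. It fell in WT ganglia (-0.56 ± 0.12, adjusted p = 0.0118) and changed by 0.06 ± 0.12 in dKO ganglia, the difference being 0.62 ± 0.17 (adjusted p = 0.247). Actn4, the highest crosslinker, measured 23.0 and 22.3 FPKM in dKO SNI libraries against 25.9 and 27.4 FPKM in dKO sham libraries, and 28.7 and 24.5 FPKM in WT SNI libraries against 29.9 and 31.0 FPKM in WT sham libraries. Its SNI libraries were the lower ones in each genotype, by less than a called change (-0.23 in dKO, -0.19 in WT). The Actn1 call was lost without either WT sham library or WT SNI library 2, at -0.57 to -0.54 and adjusted p of 0.0637 to 0.077, and that of Fscn1 was kept in all 18 alternative settings.

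Talins join integrins to actin. Tln2, the form prominent in brain and muscle, measured 5.11 and 4.17 FPKM in dKO SNI libraries against 14.5 and 14.0 FPKM in dKO sham libraries, and 8.89 and 7.50 FPKM in WT SNI libraries against 16.6 and 18.2 FPKM in WT sham libraries. It fell in both genotypes, by 1.44 ± 0.14 on the log2 scale in dKO (adjusted p = 0.000105) and by 1.00 ± 0.14 in WT ganglia (adjusted p = 0.0014). Tln1, the talin of most cells, changed by 0.37 in dKO (adjusted p = 0.0764) and 0.26 in WT ganglia (adjusted p = 0.246). Under quantile normalization its dKO change was called (0.46, adjusted p = 0.0268). Zyx, zyxin, which gathers at strained adhesions and stress fibres, measured 26.9 and 23.2 FPKM in dKO SNI libraries against 15.7 and 17.8 FPKM in dKO sham libraries, and 31.6 and 23.9 FPKM in WT SNI libraries against 15.7 and 19.2 FPKM in WT sham libraries. It rose in both (0.55 ± 0.17, adjusted p = 0.0238 in dKO; 0.63 ± 0.17, adjusted p = 0.0267 in WT), with no overlap. Vcl, vinculin, changed by -0.22 and -0.01 without a call. The Zyx calls were lost without WT sham library 1 or 2 or WT SNI library 1 in WT ganglia, and without dKO sham library 1 or dKO SNI library 1 in dKO ganglia, at 0.44 to 0.77 and adjusted p of 0.0568 to 0.164.

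None of the ERM genes, whose proteins pin actin to the membrane, was called. Msn, moesin, the highest, measured 83.8 and 72.2 FPKM in dKO SNI libraries against 118 and 90.2 FPKM in dKO sham libraries, and 119 and 104 FPKM in WT SNI libraries against 120.0 and 133 FPKM in WT sham libraries. The dKO SNI libraries were the lowest of the 8, with changes of -0.40 in dKO (adjusted p = 0.0776) and -0.18 in WT ganglia (adjusted p = 0.465). Without dKO sham library 2 the dKO change was called (-0.59, adjusted p = 0.0361). Ezr, ezrin, measured 15.6 and 12.3 FPKM in dKO SNI libraries against 14.4 and 15.8 FPKM in dKO sham libraries, and 15.0 and 14.0 FPKM in WT SNI libraries against 12.2 and 12.4 FPKM in WT sham libraries, and Rdx, radixin, changed by -0.19 and -0.02.

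Tropomyosins coat filaments and decide which motors and cutters reach them. Tpm4 measured 124 and 128 FPKM in dKO SNI libraries against 54.8 and 52.7 FPKM in dKO sham libraries, and 81.0 and 96.6 FPKM in WT SNI libraries against 46.1 and 45.1 FPKM in WT sham libraries. It rose by 1.21 ± 0.14 in dKO (adjusted p = 0.000197) and by 0.94 ± 0.14 in WT ganglia (adjusted p = 0.00183), calls that held in all 18 alternative settings. Tpm3 measured 13.8 and 6.68 FPKM in dKO SNI libraries against 3.88 and 3.20 FPKM in dKO sham libraries, and 5.39 and 5.49 FPKM in WT SNI libraries against 3.53 and 3.25 FPKM in WT sham libraries. The dKO SNI libraries of Tpm3 differed from each other by more than any other pair of replicates of that gene, and the rise was called in dKO (1.23 ± 0.25, adjusted p = 0.00355) but not in WT ganglia (0.55 ± 0.25, adjusted p = 0.138), where it was called without dKO SNI library 1 (0.55, adjusted p = 0.0207) or 2 (0.55, adjusted p = 0.0202) or with WT libraries alone in the fit (adjusted p = 0.0183). The dKO change of Tpm3 was 0.76 without dKO SNI library 1 and 1.70 without dKO SNI library 2, and was called in both. Tpm1 measured 29.4 and 26.9 FPKM in dKO SNI libraries against 47.5 and 44.3 FPKM in dKO sham libraries, and 40.0 and 38.8 FPKM in WT SNI libraries against 44.9 and 55.4 FPKM in WT sham libraries. It fell in dKO ganglia (-0.69 ± 0.14, adjusted p = 0.00353), and the WT change of -0.33 was not called (adjusted p = 0.114).

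Tpm2, a tropomyosin of muscle, measured 2.81 and 1.80 FPKM in dKO SNI libraries against 2.02 and 2.68 FPKM in dKO sham libraries. In WT SNI libraries it measured 1.34 and 1.82 FPKM against 1.83 and 22.2 FPKM in WT sham libraries. The value of 22.2 FPKM stands in WT sham library 2, the library with Acta1 and Ckm. With it the WT change was -1.66 ± 0.72 (adjusted p = 0.126), without it -0.14 (adjusted p = 0.781), and with it alone as WT sham -3.17 (adjusted p = 0.000125). No direction for Tpm2 can be read from these values.

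Ratios were computed for 11 pairs of genes. The pairs were chosen after the values were seen and are described without a test. The ratio of Tln1 to Tln2 was 4.32 and 4.76 in dKO SNI libraries against 1.01 and 1.23 in dKO sham libraries, and 2.83 and 2.68 in WT SNI libraries against 1.02 and 1.12 in WT sham libraries. The ratio of Tpm4 to Tpm1 was 4.22 and 4.75 in dKO SNI against 1.15 and 1.19 in dKO sham libraries, and 2.03 and 2.49 in WT SNI against 1.03 and 0.814 in WT sham libraries. In both pairs every SNI library was above every sham library and every dKO SNI library above every WT SNI library. Limk2 to Limk1 stood at 1.52 and 1.80 in dKO SNI against 0.551 and 0.563 in dKO sham libraries, and at 0.957 and 1.07 in WT SNI against 0.420 and 0.429 in WT sham libraries. Wasf2 to Wasf3 stood at 2.74 and 3.66 in dKO SNI against 0.877 and 1.24 in dKO sham libraries, and at 1.65 and 1.70 in WT SNI against 0.838 and 0.867 in WT sham libraries. Pfn1 to Pfn2 stood at 1.43 and 1.52 in dKO SNI against 0.714 and 0.781 in dKO sham libraries, and at 1.05 and 0.947 in WT SNI against 0.713 and 0.739 in WT sham libraries. In each of these 5 pairs the ratio was higher in every SNI library than in every sham library. Of the other pairs, Wasf2 to Wasf1 stood at 1.40 and 2.50 in dKO SNI against 0.793 and 0.794 in dKO sham libraries, and at 0.723 and 1.09 in WT SNI against 0.594 and 0.582 in WT sham libraries, so that WT SNI library 1 was below both dKO sham libraries. Arpc1b to Arpc1a, between 1.64 and 2.01 in all libraries, and Cfl1 to Dstn, between 3.17 and 4.41, also lacked that order over all libraries. Flna to Actn4, a pair of crosslinkers that are not close relatives, stood at 1.73 and 2.02 in dKO SNI against 0.527 and 0.529 in dKO sham libraries, and at 0.854 and 1.12 in WT SNI against 0.383 and 0.386 in WT sham libraries. Cfl1 to Cfl2 showed no such order, at 9.82 and 7.67 in dKO SNI, 7.64 and 9.21 in dKO sham, 8.93 and 8.52 in WT SNI and 9.11 and 8.63 in WT sham libraries. Actb to Actg1 stood at 1.53 and 1.74 in dKO SNI against 0.789 and 0.935 in dKO sham libraries, and at 0.825 and 1.02 in WT SNI against 0.769 and 0.797 in WT sham libraries. The sum of neuronal markers given above was lower in dKO SNI than in all other libraries, and its part in the ratios was not tested.

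**Figure D4:**
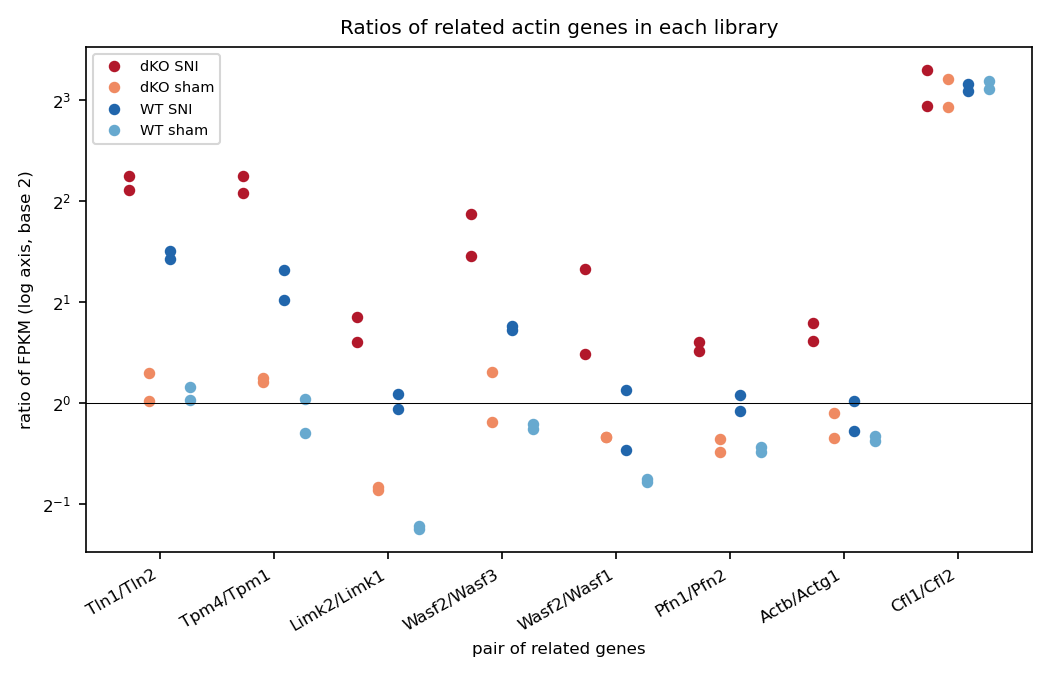
Ratio of FPKM of related genes in each of the 8 libraries on a log axis, grouped from dKO SNI to WT sham. Tln1 to Tln2 and Tpm4 to Tpm1 stand between 4.22 and 4.76 in the dKO SNI libraries and near 1 in the sham libraries, and Cfl1 to Cfl2 lies between 7.64 and 9.82.

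Between the genotypes after axotomy, dKO SNI against WT SNI, 12 of the 54 genes were called (22.2%), 5 higher and 7 lower, against 24.1% of all tested genes (10.7% higher, 13.4% lower). Higher in dKO SNI were Was (0.97 ± 0.19, adjusted p = 0.0123), Coro1a (0.79 ± 0.15, adjusted p = 0.0118), Flna (0.69 ± 0.13, adjusted p = 0.0113), Capg (0.68 ± 0.20, adjusted p = 0.0409) and Tpm4 (0.50 ± 0.14, adjusted p = 0.0286). Lower were Wasf1 (-0.81 ± 0.21), Tln2 (-0.71 ± 0.14), Limk1 (-0.69 ± 0.17), Actg1 (-0.62 ± 0.19), Wasf3 (-0.62 ± 0.16), Tpm1 (-0.47 ± 0.14) and Wasl (-0.42 ± 0.12), with adjusted p of 0.012 to 0.0394. For each of these 12 both dKO SNI libraries lay on one side of both WT SNI libraries; the groups failed to overlap for 37 of the 54, with dKO SNI higher for 15 and lower for 22, where 30.8% of all genes were higher and 37.4% lower in that way. Fscn1 (-0.62 ± 0.23, adjusted p = 0.0733) and Msn (-0.51, adjusted p = 0.0551) missed the threshold; Fscn1 was called without WT SNI library 2 (-0.89, adjusted p = 0.0381) or dKO SNI library 1 (-0.85, adjusted p = 0.047), and Msn without either dKO sham library (-0.51, adjusted p = 0.0447 and 0.0452).

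None of these 12 calls held in 2 of the fits that leave out a library. Without WT SNI library 1, 0 of the 54 were called, with 10 at an unadjusted p under 0.05, and without dKO SNI library 2, 0 were called, with 12 at an unadjusted p under 0.05. In those fits all 12 kept their sign: Was changed by 0.75 and 1.10, Flna by 0.61 and 0.60, and Tln2 by -0.60 and -0.59. Over all genes 9 rose and 1 fell without WT SNI library 1, and 9 rose and 2 fell without dKO SNI library 2, against 1374 and 1732 with all libraries. Of the marker lists, 16 of 22 macrophage and 15 of 15 neutrophil markers were called higher in dKO SNI and 10 of 15 pan-neuronal markers lower. Over all tested genes 10.7% were called higher and 13.4% lower. Among the pan-neuronal markers Avil already differed between the sham groups, at -1.17 ± 0.17 in dKO relative to WT (adjusted p = 0.038). It was the only marker of these 15 called there. Avil encodes Advillin, and only the dKO mice carried Advillin-Cre. For this gene an effect of the Cre allele and a change of the neurons cannot be told apart. The part of these cell types in the genotype difference was not tested.

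**Figure D5:**
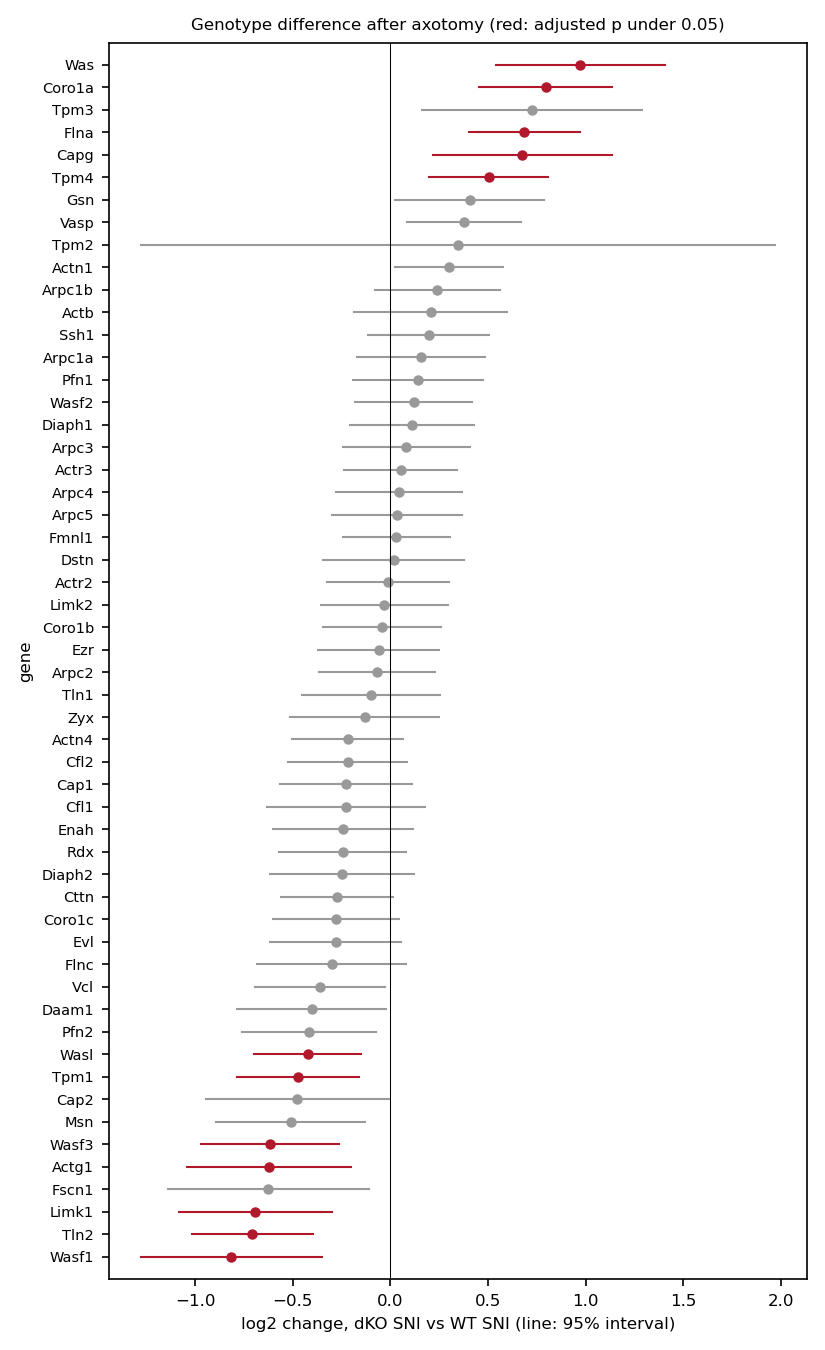
Difference between dKO SNI and WT SNI libraries for each of the 54 genes in log2(FPKM + 1), ordered by size, with 95% confidence intervals from limma as lines; red marks an adjusted p under 0.05. The 5 called higher run from Was (0.97) to Tpm4 (0.50) and the 7 called lower from Wasl (-0.42) to Wasf1 (-0.81).

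All 54 genes are protein coding in the GENCODE M21 annotation and lie on 18 chromosomes. Reads in exons shared with another gene cannot be assigned for certain. Strandedness of the libraries is not stated, and strand could separate only reads shared with a gene on the opposite strand. Over 10% of the exon bases were so shared for Vcl (25.5%, with Ap3m1), Arpc1b (18.2%, with Pdap1), Cfl1 (16.5%, with Snx32), Coro1b (13.5%, with Ptprcap and Rps6kb2) and Arpc4 (12.2%, with Ttll3). Of these Arpc4 was called, in dKO injury. The overlap of Arpc4 with Ttll3 lay wholly on the same strand. For Coro1b 1.40% of the exon bases were shared with a gene on the opposite strand. The actins and Cfl1 also have processed copies in the genome, and how reads that match several places were counted is not given in the sources used here.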

How the data were processed

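Per the labels' protocols, column-purified total RNA of the ganglia went into TruSeq paired-end libraries. Tools listed in the submitters' processing notes are StringTie 1.3.0, HISAT2 2.0.4 and edgeR, and builds are mm10 and GRCm38.p4, without role or order. The authors deposited 1 table of FPKM values, in which a gene's level depends on the transcript model and on what share of the library other genes take. Whole reads could not be recovered throughout from low values, so no count test was used. Of 1939 ratios 64.4% came within 0.1 of an integer under the best scale, above the 20% expected by chance at a fixed scale.

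limma 3.58.1 (R 4.3.3) was fitted to log2(FPKM + 1) with 1 mean per group over all 8 libraries, a mean-variance trend, two-sided tests and Benjamini-Hochberg adjustment over the 12884 genes that reached 1 FPKM in 2 or more libraries, and checked on simulated data. Exact permutation of a single gene was not used, its smallest possible p being 0.333 with 2 libraries a group. No 2 libraries were identical (0 pairs). Alternatives were other pseudocounts (0.1, 5), no filter, a mean of at least 5 FPKM, median centring, quantile normalization, robust moderation, no trend, a replicate block, fits of only the groups compared, and each library left out. The genes and marker lists were chosen with earlier results of these data known. Values per library are given for both actins and, in each functional group, for the gene with the highest mean and the genes with the largest injury changes; other called genes given per library, and the related pairs, were added after their values were seen. Of other pathway lists the 3 genes with the smallest p in dKO injury are named, and some of these results are not reported here.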

Additional observations from a re-analysis of the deposited data

How the results depend on the processing

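Leaving out 1 library at a time, the number of actin genes called ran from 8 to 15 in WT injury (8 without WT sham library 2), from 13 to 23 in dKO injury (14 without dKO sham library 1, 13 without dKO SNI library 2), from 0 to 12 in dKO SNI against WT SNI (0 without WT SNI library 1 or dKO SNI library 2), from 0 to 1 in dKO sham against WT sham and from 0 to 1 in the difference of injury responses (Tpm2, without WT sham library 1, in both). A lone library left in a group is assumed to vary like the other groups. With no filter on low values, 6 genes were called in dKO SNI against WT SNI in place of 12. The other counts in the 10 further settings stayed within 1.5 times, but some calls were lost and others gained. Lost with no filter were Wasf3 and Zyx in WT injury and Actb, Evl and Pfn1 in dKO injury. Quantile normalization ended the calls of Actb, Arpc5, Evl and Pfn1 in dKO injury, and of Tpm1 and Wasl in dKO SNI against WT SNI. Fits of only the groups compared ended those of Actb, Arpc4, Arpc5, Evl and Pfn1 in dKO injury. In dKO SNI against WT SNI they ended those of Actg1, Tpm1, Tpm4 and Wasl. Quantile normalization added calls of Actg1 and Tln1 in dKO injury and of Cfl1 and Vasp in dKO SNI against WT SNI. Without the trend, calls of Arpc5 and Gsn in WT injury and of Arpc3 in dKO injury were added. Pfn2 was added there in dKO SNI against WT SNI. Calls present in every setting in which the gene was tested were those of Cttn, Flna, Flnc, Fscn1, Tln2, Tpm4 and Was in WT injury and of Arpc2, Cttn, Flna, Flnc, Limk1, Tln2, Tpm1, Tpm3, Tpm4, Was, Wasf3 and Wasl in dKO injury. Under quantile normalization Cfl1 was called after a change of sign, at -0.53 (adjusted p = 0.0283) in dKO injury, and Actb (-0.06) and Arpc1b (-0.05), uncalled in WT injury, also changed sign; the cause was not tested. Same-numbered libraries deviated together with correlations of -0.188 to 0.254, so the numbers do not pair them; with a replicate block 14 genes were called in WT injury, 20 in dKO injury (Arpc4, Arpc5, Evl and Pfn1 were not called, at adjusted p of 0.0558 to 0.0706), 0 in dKO sham against WT sham, 12 in dKO SNI against WT SNI and 0 in the difference. Depth is unknown, which limits the genes near 1 FPKM (Was, Flnc, Cap2, Diaph2) most.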

Other observations

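Other genes of the pathway, in lists separate from the 54, also moved in both directions, beside 48.4% (dKO injury) and 23% (WT injury) of all genes called. Of 30 tested nucleators, elongators and their partners, 6 rose and 10 fell in dKO injury, and 4 rose and 5 fell in WT injury. Nckap1l, a WAVE complex subunit of leukocytes, measured 11.6 and 12.0 FPKM in dKO SNI libraries against 1.73 and 2.67 FPKM in dKO sham libraries, and 5.45 and 6.78 FPKM in WT SNI libraries against 1.35 and 1.37 FPKM in WT sham libraries. Hcls1, the cortactin of leukocytes, measured 22.5 and 24.0 FPKM in dKO SNI libraries against 3.25 and 5.79 FPKM in dKO sham libraries, and 7.82 and 10.2 FPKM in WT SNI libraries against 2.40 and 3.23 FPKM in WT sham libraries. Both genes rose in both genotypes. Wipf3, a WASP-interacting protein, fell to 3.10 and 2.03 FPKM in dKO SNI libraries against 14.1 and 14.4 FPKM in dKO sham libraries, and to 7.16 and 5.94 FPKM in WT SNI libraries against 17.3 and 18.3 FPKM in WT sham libraries. Macrophage and neutrophil marker sums were also higher in SNI libraries, and their part in these changes was not tested.

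Of 25 further capping, severing and monomer binding genes 8 rose and 9 fell in dKO injury, and 3 rose and 4 fell in WT injury; the named ones were Twf2 (1.11 in dKO, 0.83 in WT), Eps8 (1.05, 1.14) and Coro2b (-1.45, -0.78). Of 25 further crosslinkers 7 rose and 8 fell in dKO injury and 4 rose and 1 fell in WT injury. Marcksl1, a MARCKS-like protein that binds actin, rose to 39.7 and 32.5 FPKM in dKO SNI libraries against 15.9 and 19.97 FPKM in dKO sham libraries, and to 35.5 and 39.7 FPKM in WT SNI libraries against 9.18 and 10.2 FPKM in WT sham libraries, and Cnn2, a calponin, changed by 1.42 in dKO and 0.79 in WT, both called. Of 18 further adhesion genes 8 rose and 4 fell in dKO injury and 6 rose and 2 fell in WT injury, with Fermt3 at 2.14 and 1.40, Parvg at 1.51 and 0.62 and Tns1 at -1.07 and -0.82. Of the 3 other actin isoforms tested, Acta1, Acta2 and Actg2, 0 were called in either injury comparison (limma).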
